A study of Caenorhabditis elegans with 8 samples.

Results

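The p38 kinase immune pathway is the signalling chain by which the intestine of Caenorhabditis elegans switches on genes that fight infection. The genes described here are 9, picked by name: tir-1, nsy-1, sek-1, pmk-1, atf-7, vhp-1, zip-2, irg-4 and irg-5. They are 9 of the 20392 genes in the deposited table, and each was found there by its WormBase identifier. Transcripts were counted in intestines dissected from day 1 adults of the wild-type N2 (Bristol) strain, either fed on OP50 bacteria at 20 °C or kept for 12 h without food in rolling tubes of M9 buffer. Each group had 4 libraries, which the labels call independent biological replicates, and each library was made from pooled intestines. Both groups carry no transgene or mutation. Fed animals were dissected after a wash, so that the fast, the hours in liquid and the added age cannot be told apart. A time of 12 h and growth on auxin plates are attached to both groups in the labels, while the study's methods for adults name OP50 plates without auxin.

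In this pathway TIR-1, a scaffold with a TIR domain and the worm relative of mammalian SARM1, activates the kinase NSY-1, which phosphorylates the kinase SEK-1, which in turn phosphorylates the p38 kinase PMK-1. PMK-1 acts on the transcription factor ATF-7, a repressor that becomes an activator of defence genes once it is phosphorylated. The phosphatase VHP-1 removes the activating phosphates from PMK-1. In the intestine the chain sets the basal level of secreted defence proteins and raises it during infection with bacterial pathogens. ZIP-2 is a transcription factor of a separate arm that answers blocked protein synthesis and infection. irg-4 and irg-5 are infection response genes that encode proteins with a CUB-like domain and serve as targets of the p38 chain. Signalling through the chain runs by phosphorylation, which transcript counts do not measure.

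The fed libraries held 20964161 to 26372847 counts and the fasted ones 25310202 to 33846215. Levels are in RPM, counts per 1000000 counts of the same library, and in RPM per kilobase of exon where genes are compared with each other. A gene was called when the quasi-likelihood test of edgeR gave a Benjamini-Hochberg FDR under 0.01, adjusted over all 7379 tested genes, and the fold change was over 1.5. By total counts, the scaling of the study, 52.9% of the tested genes were called higher in fasted intestines and 9.97% lower, and the median over the tested genes was 1.23 on the log2 scale. With TMM factors, which set most genes level between libraries, the shares were 19.6% and 21.5% and the median 0.16, so that the scaling alone shifted values by 1.07 on the log2 scale. The changes of the tested pathway genes and the medians of the lists below are therefore also set against the median of all tested genes. The sum of intestine markers ranged from 11621 to 12618 RPM among fed libraries and from 7780 to 8228 among fasted ones. All 12 of them were above the floor of 3 counts in both groups. The sum hides that these markers moved both ways: by total counts 6 of the 12 were called lower and 3 higher. Markers of other tissues were uneven among fasted libraries. The sum of 12 body wall muscle markers ranged from 24.2 to 30.8 RPM among fed libraries and from 63.2 to 1338 among fasted ones, with 3 of them, myo-3, tnt-2 and hlh-1, at 0 in all fed libraries. For 14 neuron markers these ranges were 9.48 to 13.4 and 16.3 to 85.9, with 6 at 0 in all fed libraries, and for 15 germline and oocyte markers 18.5 to 21.8 and 62.6 to 449, with 3 at 0 in all fed libraries. Fasted libraries 1 and 4 were the highest for muscle, pharynx and neuron markers, and fasted library 2 for germline markers. In dissected tissue, fewer cells of a type and less RNA per cell cannot be told apart.

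The pathway genes did not move together in fasted intestines. The upstream kinase gene nsy-1 rose 9.02-fold and the scaffold gene tir-1 rose 2.27-fold, whereas the kinase gene sek-1 fell 2.23-fold and the target irg-4 fell 2.81-fold, all as ratios of mean RPM by total counts. pmk-1, the p38 kinase itself, atf-7, vhp-1 and zip-2 were not called. irg-5 had 0 counts in every library. Of the 8 tested genes 2 were thus called higher and 2 lower by total counts, where 52.9% and 9.97% of all tested genes were, or 62.8% in either direction. With TMM factors 1 was higher, nsy-1, and 5 were lower, sek-1, irg-4, zip-2, atf-7 and vhp-1, where 19.6% and 21.5% of all tested genes were, or 41.1% in either direction. nsy-1, sek-1 and irg-4 were called in the same direction under both scalings. Of the tested pathway genes, only pmk-1 and vhp-1 changed sign between the scalings. The median of the 8 genes was 0.05 by total counts, or −1.17 relative to all tested genes, and −1.02 with TMM factors. Fed and fasted values were fully separate for 4 of the 9 genes, nsy-1, tir-1, sek-1 and irg-4, compared with 69.7% of all tested genes without overlap.

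**Figure D1:**
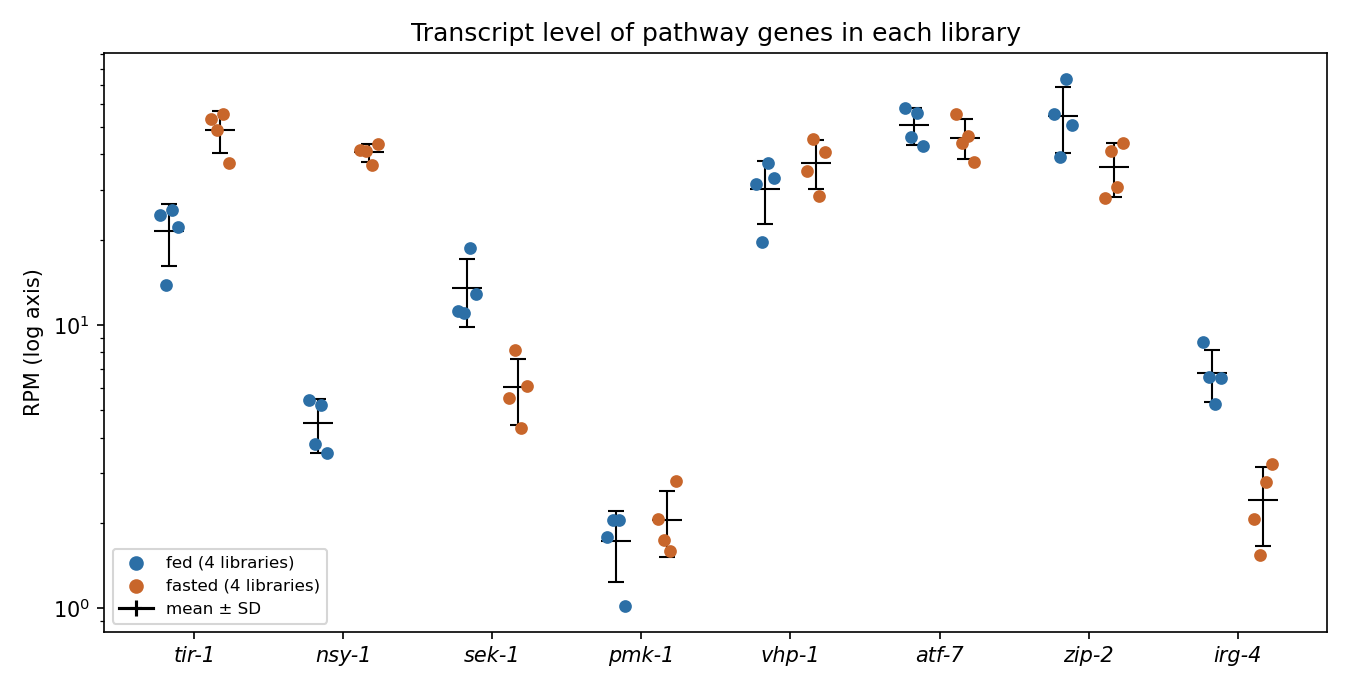
Level of 8 pathway genes in each library, in RPM on a log axis (fed libraries blue, fasted libraries orange, 4 points each, black bars mean ± SD). The nsy-1 points rise from 3.53 to 5.42 in fed libraries to 36.6 to 43.6 in fasted ones, the sek-1 and irg-4 points fall, and the points of pmk-1, vhp-1, atf-7 and zip-2 overlap between groups. irg-5, with 0 counts in all libraries, is not drawn.

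tir-1 (WBGene00006575; chromosome III, 3869590 to 3901642, minus strand, protein-coding, in the WBcel235 annotation) codes for the scaffold at the top of the chain. Fed libraries 1 to 4 held 24.4, 13.8, 25.4 and 22.1 RPM, against 53.1, 48.6, 55.5 and 37.3 for fasted libraries 1 to 4. All 4 fasted values were above all fed ones, and fed library 2 was the lowest. The mean rose from 21.4 ± 5.24 to 48.6 ± 8.08 RPM (SD, n = 4), a log2 fold change of 1.18 (SE 0.211, edgeR FDR 4.81e-04). This lay −0.05 from the median of all tested genes, and with TMM factors tir-1 was not called (0.12, FDR 0.615). Neurons also transcribe tir-1, and the neuron markers summed to 69.6, 18.1, 16.3 and 85.9 RPM across fasted libraries 1 to 4. The part of neurons in the tir-1 level was not tested. The annotated end of tir-1 lies 2 bp from that of rpl-3, a highly expressed ribosomal protein gene on the other strand. rpl-3 went from 185 ± 6.67 to 452 ± 25.0 RPM (SD, n = 4), a 2.45-fold rise close in size to that of tir-1. It stood at 183, 188, 177 and 193 RPM in fed libraries 1 to 4. The part of rpl-3 in the tir-1 counts was not tested.

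nsy-1 (WBGene00003822; chromosome II, 5022757 to 5029999, plus strand), the first kinase of the cascade and the worm relative of mammalian ASK1, changed most. The fed libraries held 5.42, 3.82, 5.23 and 3.53 RPM, against 41.3, 40.9, 36.6 and 43.6 for the fasted libraries. The fasted values lay close together and far above every fed value. The mean rose from 4.50 ± 0.967 to 40.6 ± 2.94 RPM (SD, n = 4), with a log2 fold change of 3.17 (SE 0.188, edgeR FDR 2.56e-07), which is 1.94 above the median of all tested genes. Of all tested genes, 89.7% had a smaller log2 fold change. With TMM factors nsy-1 was the only one of the pathway genes called higher (2.10, SE 0.165, FDR 1.53e-06). Without fasted libraries 1 and 4, which were high in muscle and neuron markers, the log2 fold change was 3.10. Fasted library 2, which this fit keeps, had the highest germline sum (449 RPM) and the highest hypodermis sum (39.3 RPM), and the part of other tissues in the nsy-1 level was not tested. The end of nsy-1 overlaps wdr-83 on the other strand by 56 bp, and wdr-83 had at most 57 counts in a library.

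sek-1 (WBGene00004758; chromosome X, 7816734 to 7821036, plus strand) encodes the kinase between NSY-1 and PMK-1, and its transcript went the other way. The fed libraries held 11.2, 10.97, 18.7 and 12.9 RPM and the fasted ones 5.52, 8.14, 4.33 and 6.09. The highest fasted value, in library 2, was below the lowest fed value. The mean fell from 13.4 ± 3.63 to 6.02 ± 1.59 RPM (SD, n = 4), with a log2 fold change of −1.16 (SE 0.246, edgeR FDR 0.00146), or −2.39 relative to all tested genes. Only 8.70% of the tested genes had a smaller log2 fold change. With TMM factors the fall was larger (−2.23, FDR 9.89e-06). Without fasted libraries 1 and 4 the value was −1.11 and the call was lost (FDR 0.0187), in a fit with fewer libraries, whereas in the fit with TMM factors and without these libraries sek-1 was called (−2.20). The gene that overlaps the start of sek-1 on the other strand, R03G5.6, had at most 7 counts in a library.

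nsy-1 and sek-1 can be compared inside each library, where scaling has no part. Per kilobase of exon there were 0.113 to 0.199 nsy-1 reads for each sek-1 read in fed libraries and 2.07 to 3.48 in fasted ones. In every fed library sek-1 was the more abundant transcript, and in every fasted one nsy-1 was. This pair was chosen after its values were seen. The ratio of tir-1 to nsy-1 per kilobase went from 4.08 to 7.07 in fed libraries to 0.961 to 1.71 in fasted ones. These groups did not overlap either. This pair, too, was not among the planned ratios, and nsy-1 had already risen more than tir-1 by RPM.

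pmk-1 (WBGene00004055; chromosome IV, 8148794 to 8151266, plus strand), which encodes the p38 kinase at the end of the cascade, had few reads in both groups. The fed libraries held 1.78, 2.05, 2.05 and 1.02 RPM, from 27 to 51 counts, against 2.07, 1.74, 1.599 and 2.81 for the fasted libraries, from 44 to 95 counts. The groups overlapped, with the lowest value in fed library 4 and the highest in fasted library 4. The mean was 1.73 ± 0.486 RPM in fed and 2.05 ± 0.540 in fasted intestines (SD, n = 4), with a log2 fold change of 0.25 (SE 0.313, edgeR FDR 0.469) and a 95% confidence interval of −0.44 to 0.95. The value by total counts was −0.97 relative to all tested genes. With TMM factors the value was −0.83 (95% confidence interval −1.49 to −0.16) and also not called (FDR 0.0366). The sign of the change of pmk-1 thus rested on the scaling. By total counts and at this depth, neither a rise of 1.5-fold nor a small fall could be told from no change. The interval with TMM factors lay wholly on the side of a fall.

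Set against pmk-1 in the same library, 3 of the other genes separated the groups. These genes were also separate by RPM, as were 69.7% of all tested genes. The share of all tested genes that separate as a ratio to pmk-1 was not computed. The ratio of nsy-1 to pmk-1 per kilobase was 0.423 to 0.784 in fed and 3.53 to 5.35 in fasted libraries, that of sek-1 to pmk-1 2.95 to 6.93 and 1.197 to 2.58, and that of irg-4 to pmk-1 2.57 to 6.37 and 0.886 to 1.75. The ratios of tir-1, atf-7, vhp-1 and zip-2 to pmk-1 overlapped between groups.

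pmk-1 lies in a row with the genes of the other p38 kinases, pmk-3 (8139219 to 8143154) and pmk-2 (8143500 to 8148648), on the same strand of chromosome IV, and the 3 are known to be transcribed as an operon. pmk-2, which acts mainly in neurons, ranged from 0.382 to 0.684 RPM among fed libraries and from 0.620 to 1.46 among fasted ones and was not called (log2 fold change 0.93, SE 0.406, edgeR FDR 0.0575). pmk-3 was far more abundant. It ranged from 18.6 to 20.9 RPM among fed libraries and from 26.5 to 36.2 among fasted ones, without overlap, and was not called because its change of 0.58 (SE 0.146, FDR 0.00429) was under the fold threshold. Both turned negative with TMM factors, at −0.13 and −0.50, and were not called.

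vhp-1 (WBGene00006923; chromosome II, 5323276 to 5340829, plus strand) encodes the phosphatase that restrains PMK-1 and the JNK-like kinase KGB-1. Fed libraries held 31.4, 19.6, 37.1 and 33.0 RPM and fasted ones 35.01, 45.4, 28.4 and 40.8. The groups overlapped, and fed library 2 was again the lowest. The means were 30.3 ± 7.54 and 37.4 ± 7.34 RPM (SD, n = 4), and the log2 fold change was 0.30 (SE 0.216, edgeR FDR 0.217, 95% confidence interval −0.17 to 0.78). By total counts vhp-1 lay −0.92 from the median of all tested genes. With TMM factors vhp-1 was called lower (−0.76, FDR 0.00512), but this call was lost when a replicate block was added (FDR 0.0155) or fasted libraries 1 and 4 were left out (FDR 0.0232).

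atf-7 (WBGene00000223; chromosome III, 4491627 to 4499045, minus strand), the transcription factor that PMK-1 phosphorylates, was among the more abundant pathway transcripts. The fed libraries held 58.0, 46.0, 55.9 and 42.8 RPM, against 55.4, 43.7, 46.5 and 37.5 for the fasted libraries. The groups overlapped in part, with fed libraries 1 and 3 above every fasted value and fasted library 4 below every fed value. The means were 50.7 ± 7.42 and 45.8 ± 7.45 RPM (SD, n = 4), with a log2 fold change of −0.15 (SE 0.162, edgeR FDR 0.422, 95% confidence interval −0.50 to 0.21). Since most genes were higher by total counts, this was −1.37 relative to all tested genes, and with TMM factors atf-7 was called lower (−1.22, SE 0.156, FDR 6.63e-05).

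zip-2 (WBGene00019327; chromosome III, 832982 to 835814, plus strand), the transcription factor of the arm that runs beside the p38 chain, was at 55.6, 39.1, 73.5 and 50.8 RPM in fed libraries and at 28.1, 41.2, 30.7 and 43.9 in fasted ones. Fed library 2 lay within the fasted range, and the other fed libraries lay above it. The means were 54.7 ± 14.3 and 36.0 ± 7.74 RPM (SD, n = 4). The log2 fold change of −0.61 (SE 0.216, edgeR FDR 0.0250) was not called by total counts, and that of −1.67 with TMM factors was (FDR 2.92e-05). By total counts zip-2 lay −1.83 from the median of all tested genes. dos-3, which overlaps the end of zip-2 on the other strand, had at most 5 counts in a library.

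**Figure D2:**
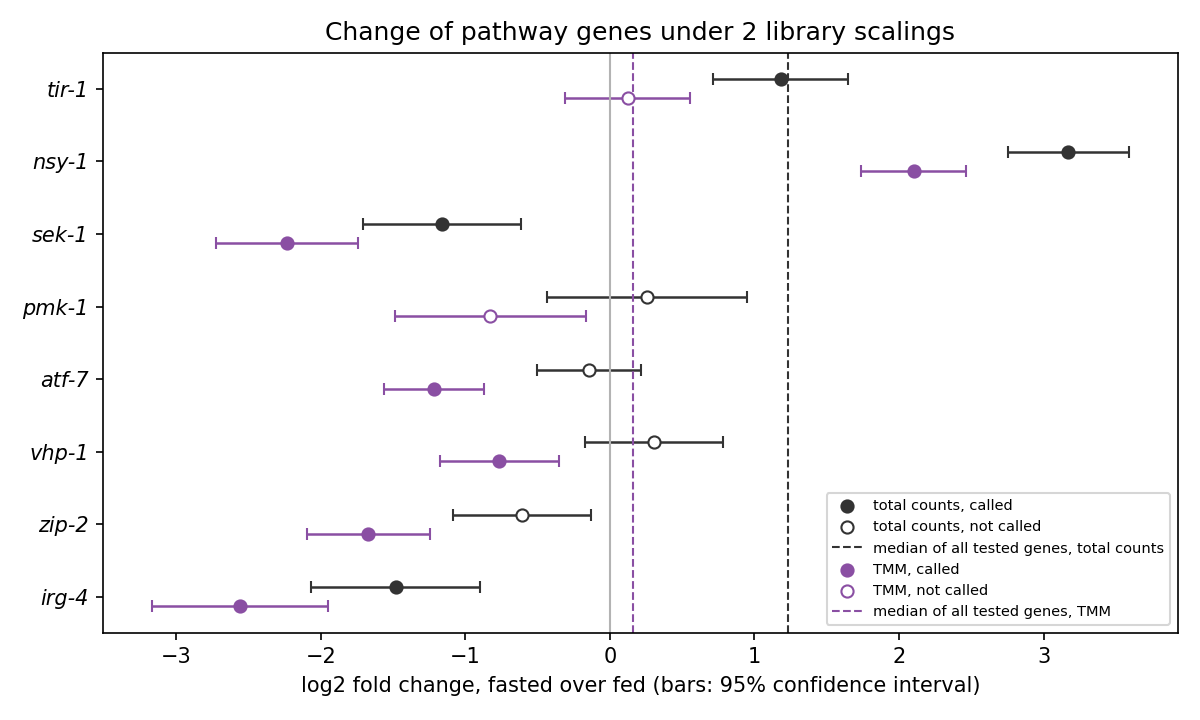
Log2 fold change of fasted over fed intestines for the 8 tested pathway genes, by total counts (black) and with TMM factors (purple), with 95% confidence intervals. Filled points were called, and the dashed lines mark the medians of all tested genes at 1.23 and 0.16. nsy-1 lies right of both lines, tir-1 lies on them, and the other 6 genes lie to the left of the median of the same scaling.

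irg-4 (WBGene00008584; chromosome IV, 12435833 to 12438236, plus strand), a defence gene whose basal level depends on the p38 chain, fell. The fed libraries held 8.69, 6.53, 5.27 and 6.52 RPM, against 2.07, 1.54, 2.80 and 3.22 for the fasted libraries. The groups did not overlap. The mean fell from 6.75 ± 1.42 to 2.41 ± 0.748 RPM (SD, n = 4), with a log2 fold change of −1.48 (SE 0.265, edgeR FDR 4.90e-04), or −2.71 relative to all tested genes, and of −2.56 with TMM factors (FDR 1.77e-05). The tested genes whose RPM followed irg-4 most closely over the 8 libraries were C23H5.8, marb-1 and F22H10.6, with Pearson correlations of log2(RPM + 0.5) of 0.989, 0.989 and 0.985. All 3 were called lower, at −2.09, −1.24 and −2.75. For pmk-1 the closest genes were ZK1248.19, arrd-25 and fbxa-27, with correlations of 0.885, 0.872 and 0.867, and none of these was called. The 8 libraries share the contrast of fed and fasted, so that these correlations are descriptions only.

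irg-5 (WBGene00009429; chromosome V, 13737010 to 13738474, minus strand) had 0 counts in all 8 libraries. A count of 0 allows up to 3 counts, or 0.114 to 0.143 RPM in the fed libraries and 0.0886 to 0.119 in the fasted ones, and this limit covers counting error only. No fold change can be given. irg-5 does not overlap another annotated gene, and some of its neighbours had reads. F35E12.6, the next gene on the same strand, ranged from 16.4 to 25.6 RPM among fed libraries and from 29.4 to 42.0 among fasted ones. On the other side, F35E12.9 had a mean of 5.98 RPM in fed and 12.1 in fasted intestines, and F35E12.10 of 4.87 and 2.34. Also nearby, dct-17, cld-9 and the pseudogene WBGene00009428 had means of 0.343, 17.6 and 0.614 RPM in fed intestines. In fasted intestines these were 2.61, 39.0 and 4.26 RPM. F35E12.2, fbxa-181 and F20G2.1, also nearby, had 0 counts in some libraries and were not tested. These neighbours were named after their values were seen. The table does not show whether irg-5 was silent or whether its reads were lost in mapping or counting.

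Per kilobase of exon, zip-2 and atf-7 were the most abundant pathway transcripts in both groups, and their ranges overlapped. In fed intestines zip-2 stood at 29.8 ± 7.78 and atf-7 at 19.5 ± 2.86 RPM per kilobase, followed by vhp-1 (9.50 ± 2.37), sek-1 (6.48 ± 1.75), irg-4 (5.89 ± 1.24), tir-1 (4.79 ± 1.17), pmk-1 (1.51 ± 0.424) and nsy-1 (0.893 ± 0.192, all SD, n = 4). From vhp-1 to tir-1 each gene overlapped the next in this order, as did pmk-1 and nsy-1, whereas atf-7 was above vhp-1 and tir-1 above pmk-1 in all fed libraries. In fasted intestines nsy-1 moved from the eighth place to the fifth, at 8.06 ± 0.583, behind vhp-1 (11.7 ± 2.31) and tir-1 (10.9 ± 1.81). Below it came sek-1 (2.90 ± 0.767), irg-4 (2.10 ± 0.653) and pmk-1 (1.79 ± 0.471, all SD, n = 4), whose ranges overlapped from each to the next. All nsy-1 values of the fasted libraries were above all their sek-1 values.

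Among other genes known to be read out as targets of PMK-1, more fell than rose. This list and those below were chosen with earlier results of these data known, so that their counts are descriptions only. Of 10 such genes 9 were tested, and 4 were called lower and 1 higher by total counts, where 9.97% and 52.9% of all tested genes were. With TMM factors 6 were lower and 0 higher, where 21.5% and 19.6% of all tested genes were. Their median log2 fold change was −0.53, or −1.76 relative to all tested genes. sysm-1, also known as T24B8.5 and widely used as a reporter of the pathway, was at 10.7, 5.44, 2.45 and 6.45 RPM in fed libraries and had at most 2 counts in a fasted one. With the fasted group at the floor of 3 counts per library, it was at least 61.8-fold lower (edgeR FDR 6.85e-06). lys-2, a lysozyme gene, fell from 432 ± 91.6 to 27.5 ± 5.88 RPM (SD, n = 4), with a log2 fold change of −3.97 (SE 0.218, edgeR FDR 1.58e-07). K08D8.5, which like irg-4 encodes a CUB-like domain, fell from 21.5 ± 1.46 to 3.04 ± 1.03 RPM (−2.82, edgeR FDR 2.73e-06). C17H12.8, named after its values were seen, fell as well (−1.05, edgeR FDR 0.00469), but this call was lost without fasted library 2 or 4 or without fed library 1, 2 or 3 (−0.88 to −1.10).

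The targets did not all fall. The gene F49F1.6, now named mul-1, rose from 2.37 ± 0.447 to 7.29 ± 2.41 RPM (SD, n = 4), or by 1.61 on the log2 scale (edgeR FDR 3.33e-04), and was not called with TMM factors (0.55). clec-85, clec-67, dod-22 and dod-24 were not called by total counts, with log2 fold changes of −0.19, −0.04, −0.53 and −0.01, and clec-85 and dod-24 were called lower with TMM factors. irg-6 had at most 8 counts in any library and was not tested.

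**Figure D3:**
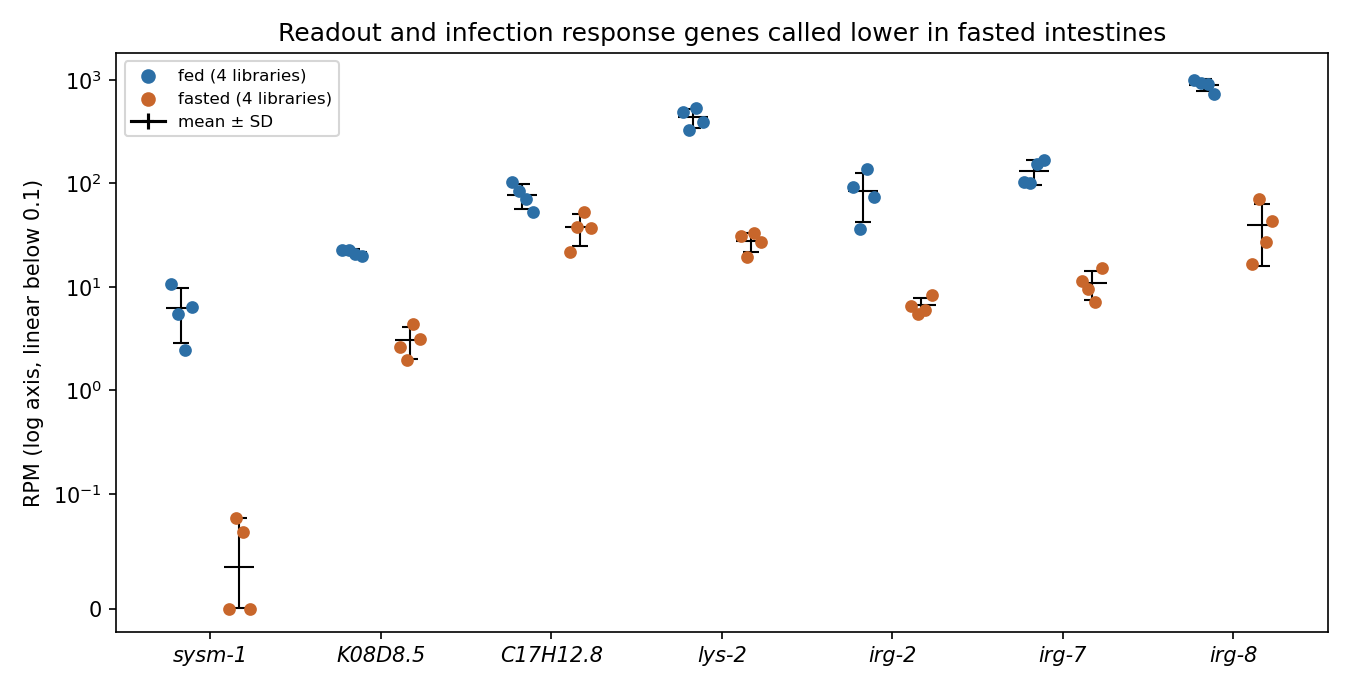
RPM of 7 PMK-1 target and infection response genes called lower in fasted intestines, in fed (blue) and fasted (orange) libraries, 4 points each, with black bars for mean ± SD. The axis is logarithmic above 0.1 and linear below it, and the lower bar of sysm-1 in fasted libraries is clipped near 0. For each of the 7 genes all fasted points lie below all fed points, and sysm-1 falls to between 0 and 0.0790 RPM.

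The arm around zip-2 and other infection response genes held genes called in both directions. Of 12 listed genes 11 were tested, with 5 higher and 4 lower by total counts, where 52.9% and 9.97% of all tested genes were. With TMM factors 2 were higher and 5 lower, where 19.6% and 21.5% of all tested genes were. The median by total counts was 0.48, or −0.75 relative to all tested genes. irg-1, the best known target of ZIP-2, had at most 8 counts in any library and was not tested. irg-2, another target of ZIP-2, was at 91.6, 36.0, 137 and 73.3 RPM in fed libraries and at 6.54, 5.49, 5.99 and 8.39 in fasted ones (log2 fold change −3.68, SE 0.365, edgeR FDR 7.95e-06). irg-8 fell from 892 ± 114 to 39.4 ± 23.4 RPM (SD, n = 4, −4.50, edgeR FDR 3.76e-06) and irg-7 from 132 ± 34.8 to 10.8 ± 3.41 (−3.61, edgeR FDR 1.29e-06). The fall of irg-2, irg-7 and irg-8 was larger with TMM factors, at −4.73, −4.69 and −5.59. The other gene called lower by total counts was atfs-1 (−1.59, edgeR FDR 3.26e-05). zip-10 and ifet-1 were called higher under both scalings. zip-10 changed by 2.27 by total counts and 1.19 with TMM factors (edgeR FDR 1.10e-05 and 5.70e-04). For ifet-1 these values were 2.12 and 1.05 (edgeR FDR 7.12e-05 and 0.00650). atfs-1, zip-10 and ifet-1 were named after their values were seen. zip-4, a gene of the same transcription factor family as zip-2, rose from 0.315 ± 0.349 to 2.75 ± 1.00 RPM (log2 fold change 3.09, edgeR FDR 9.64e-04) and was not called with TMM factors (2.01). It had 2, 4 and 4 counts in fed libraries 1 to 3, near the floor of 3 counts, and 22 in fed library 4. Without fed library 4, the highest of the fed libraries at 0.834 RPM, its log2 fold change was 4.25. That value rests on fed counts near the floor, so that its size is uncertain.

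Genes that regulate the p38 chain or intestinal immunity moved in both directions. Of 19 listed genes 18 were tested, and 10 were higher and 2 lower by total counts, shares near the 52.9% and 9.97% of all tested genes. With TMM factors 6 were higher and 3 lower, where 19.6% and 21.5% of all tested genes were. Their median of 1.61 was 0.38 above that of all tested genes. unc-43, which encodes the calcium-dependent kinase CaMKII that activates TIR-1 signalling in neurons, rose from 13.4 ± 2.38 to 224 ± 37.6 RPM (SD, n = 4), with a log2 fold change of 4.07 (SE 0.188, edgeR FDR 5.44e-08). olrn-1, a regulator of p38 activity in the intestine, had at most 2 counts in a fed library and reached 0.435 to 1.05 RPM in fasted ones, at least 6.56-fold above the floor of 3 counts per library (edgeR FDR 3.65e-04). Fasted libraries 1 to 4 held 1.05, 0.435, 0.733 and 1.00 RPM of olrn-1, and their neuron markers summed to 69.6, 18.1, 16.3 and 85.9. The part of neurons in the olrn-1 level was not tested. The call of olrn-1 was lost under 2 of the alternative settings. bar-1, a beta-catenin gene, rose by 3.40 and hlh-30, the worm relative of the lysosomal regulator TFEB, by 2.41 on the log2 scale (edgeR FDR 4.24e-06 and 6.94e-07). All 4 were also called higher with TMM factors. skn-1, a stress transcription factor that PMK-1 also phosphorylates, rose by 1.53 (edgeR FDR 8.15e-05) but was not called with TMM factors (0.47). The 2 genes called lower were nipi-3 (−1.52, edgeR FDR 0.00323), a Tribbles-like regulator of PMK-1 signalling, and nhr-86 (−0.80, edgeR FDR 0.00549), a nuclear hormone receptor that acts on intestinal immune genes. Both were named after their values were seen. nipi-3 was not called without fasted library 3 (−1.45), nor nhr-86 without fasted library 1, 2 or 3 or fed library 3 or 4 (−0.66 to −0.82).

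Among other mitogen-activated kinase cascades, 14 of 18 listed genes were tested. By total counts 9 were higher and 1 lower, where 52.9% and 9.97% of all tested genes were, and with TMM factors 1 was higher and 2 lower, where 19.6% and 21.5% were. The median was 1.00, or −0.23 relative to all tested genes. The largest changes called were those of mpk-1 (1.96, edgeR FDR 0.00228), which encodes ERK, lit-1 (1.94, edgeR FDR 4.07e-05), kgb-2 (1.82, edgeR FDR 5.81e-04) and mpk-2 (1.69, edgeR FDR 6.98e-05). Of these, lit-1 alone was called with TMM factors. mpk-1 had only 8, 10, 4 and 16 counts in fed libraries 1 to 4, not far above the floor of 3 (SE 0.446). sma-5, which encodes a kinase that shapes the intestine and was named after its values were seen, was the 1 gene called lower (−1.10, edgeR FDR 0.00524), although its groups overlapped. This call was lost without any one library other than fed and fasted library 2 (−0.94 to −1.13), and that of mpk-1 without fed library 1 (1.86). Without fasted libraries 1 and 4, high in muscle and neuron markers, mpk-1 (1.58, edgeR FDR 0.0424) and let-60 (1.30, edgeR FDR 0.0167) were not called and 7 genes of the list were higher. The part of these tissues was not tested.

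**Figure D4:**
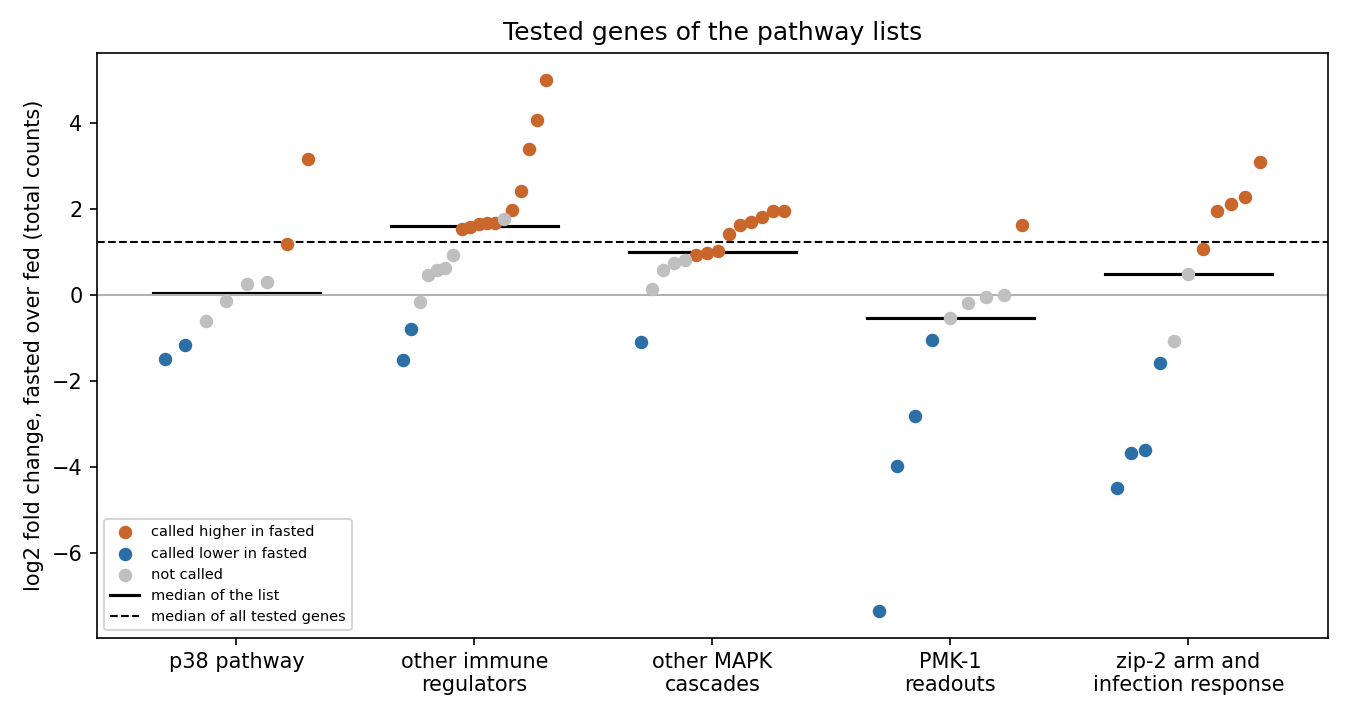
Log2 fold change of fasted over fed intestines by total counts for the tested genes of each list, in order of value (orange called higher, blue called lower, grey not called). The solid lines mark the medians of the lists, and the dashed line the median of all tested genes at 1.23. The medians of the p38 genes (0.05) and PMK-1 targets (−0.53) lie below the dashed line, and that of other immune regulators (1.61) lies above it.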

How the data were processed

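The deposited values are counts. The authors trimmed adaptors with Trimmomatic, aligned reads to the ce10 genome with QuasR, kept unique reads and counted those in the same orientation as the exons of each gene. The kit named is not stated to keep strand, so that genes on opposite strands may share reads. The authors' table also holds the exon width, another deposited value, used here for levels per kilobase. Names and positions came from the Ensembl annotation of WBcel235, a later build, and no coordinates were converted. F49F1.6 was matched through its RefSeq locus tag. No sequences are shown. The number of value columns not matched to a library was 0.

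The test was the quasi-likelihood test of edgeR 4.0.16, run under R 4.3.3 on group alone, with total counts as library size, after filterByExpr (minimum count 10, minimum total 15). SEs were the log2 fold change over the root of F. The code was tested on simulated data. Alternatives were TMM and RLE factors, DESeq2 1.42.0, other filters, a replicate block and leaving out each library. Leaving out fasted libraries 1 and 4, that with TMM factors, and a library size without the vitellogenins were added after seeing the data. All genes of the pathway and, of each other list, the 4 largest changes called were named, with pmk-2, pmk-3, skn-1, sysm-1, irg-1, irg-2 and the 3 genes most like pmk-1 and irg-4. Members and lists were chosen with earlier results of these data known. Every pair of libraries differed beyond sampling noise (chi-square per gene at least 15.1). P values measure the spread between the libraries of a group.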

Additional observations from a re-analysis of the deposited data

Results flagged for a closer look

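In groups of 4 libraries, 71 sets of values (pathway genes, named genes and marker sums) were searched for a single library far from the other 3, and 2 were found. Chance gives about 1 in 20. pmk-3 in fed library 2, at 18.6 RPM, lay below the other fed libraries, which held 20.7 to 20.9. zip-4 in fed library 4, at 0.834 RPM, lay above the others, which held 0.0759 to 0.191.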

How the results depend on the processing

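Total counts assume equal RNA per library, and TMM, RLE and DESeq2 factors assume that most genes do not change; no spike-in bears on either. Genes called higher and lower, 3901 and 736 by total counts, were 1448 and 1585 with TMM factors, 1445 and 1601 with RLE, 1748 and 1754 with DESeq2, 1316 and 1502 with a replicate block and TMM, and 943 and 1338 with TMM without fasted libraries 1 and 4. In this order, 1, 1, 1, 1 and 1 pathway genes were higher and 5, 5, 5, 4 and 4 lower, and the log2 fold change was 0.12, 0.12, 0.12, 0.13 and 0.23 for tir-1, −0.83, −0.84, −0.84, −0.82 and −1.12 for pmk-1, −1.22, −1.23, −1.23, −1.22 and −1.23 for atf-7, −0.76, −0.77, −0.77, −0.76 and −0.79 for vhp-1, −1.67, −1.68, −1.68, −1.67 and −1.67 for zip-2 and −0.50, −0.51, −0.51, −0.51 and −0.41 for pmk-3. For pmk-2 the first 4 gave −0.13, −0.14, −0.14 and −0.16. Higher calls were 6, 6, 4 and 6 immune regulators with TMM, RLE, block with TMM and TMM without these libraries, and under all 5 settings 1 other MAPK gene, 0 PMK-1 targets and 2, 2, 3, 2 and 1 genes of the zip-2 arm. Lower calls were 2 other MAPK genes with TMM, RLE and DESeq2, and 4 regulators and 7 targets with DESeq2. By total counts, lower regulators were 1 without a filter, 1 with the replicate block and 0 without fasted libraries 1 and 4. Leaving out these libraries gave 0 lower MAPK genes and 1 lower pathway gene, irg-4. There sek-1, at −1.11, was not called (edgeR FDR 0.0187), and pmk-1 was at −0.048. A library size without the vitellogenins gave −0.0080 for pmk-1 and −0.86, called, for zip-2. The cause was not tested.

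The block by replicate number alone gave 3576 higher and 693 lower genes and left the calls of the pathway genes as they were. In the study's methods, some of the collected adults were used fed and the rest were fasted. Whether libraries of the same number came from one collection is not stated. Same-numbered libraries correlated at 0.0414, 0.0873, 0.0684 and 0.155, which cannot settle this. The main test did not treat the numbers as pairs. Leaving out each library gave 3521 to 3908 higher and 636 to 724 lower genes, 2 higher and 2 lower pathway genes each time, 0 to 2 lower regulators and 0 to 1 lower MAPK genes. pmk-1 had at most 95 counts in a library, which limits its precision.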
